A study of Mus musculus with 4 samples.

Results

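Transcripts of 9 basement membrane genes that encode no collagen were followed through all cells of a single-cell atlas of the mouse Achilles tendon, the tendon between the calf muscles and the heel. They are the laminin chains Lama2, Lama4, Lama5, Lamb1, Lamb2 and Lamc1, the nidogens Nid1 and Nid2, and Hspg2, which encodes perlecan. The 9 genes were chosen by name, and all 9 were found among the 15746 genes used. They held 17460 unique molecular identifiers (UMIs, the tags that count each captured transcript once). The 4 libraries came from Achilles tendons of male C57Bl/6 mice aged 6 weeks, all of them untreated as far as the labels say, and they form 1 group. Whether each library holds tendons of 1 mouse or of several is not in the labels, so p-values measure the spread between libraries. The authors' annotation places the 1191 cells, 580, 246, 256 and 109 in libraries 1 to 4, in 13 populations, which were formed from the same counts. The comparisons below are therefore between populations and do not ask whether the populations exist.

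Basement membranes are thin sheets of matrix under endothelium, around pericytes, Schwann cells and muscle fibres, and in places around fibroblasts. A laminin is a trimer of an alpha, a beta and a gamma chain, and trimers join into a network at the cell surface. The alpha chain carries the main contacts with integrins and dystroglycan, nidogens link laminin to collagen IV, and perlecan is a large heparan sulfate proteoglycan that binds both and holds growth factors. In peripheral nerve the laminin of Schwann cells is built on the alpha 2 chain, and in vessels the alpha 4 and alpha 5 chains are the usual partners.

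The genes lie on 8 chromosomes of the mouse build GRCm38, by the GENCODE M21 annotation. Lama2 is at chr10:26980036-27619758 and Lama4 at chr10:38965515-39110188. Lama5 is at chr2:180176373-180225859, Lamb1 at chr12:31265234-31329644 and Lamb2 at chr9:108479736-108490530. Lamc1 is at chr1:153218922-153332786, Nid1 at chr13:13437551-13512269, Nid2 at chr14:19751265-19811787 and Hspg2 at chr4:137468769-137570630. Lama2, Lama5 and Lamc1 are on the minus strand.

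Libraries held 5603366, 2252390, 2269014 and 1375111 UMIs, with medians of 7440 to 8824 per cell, and the 9 genes took 0.126% to 0.18% of them. Levels are given as CPM, the UMIs of a gene per 1000000 UMIs of a population in a library, for sums of 5 or more cells. No cell name occurred in more than 1 library. Of the fixed marker lists, the pericyte and smooth muscle list was highest in pericytes (18220 CPM summed over 9 genes). The Schwann list was highest in nerve cells 1 and 2 (78408 and 68328 CPM over 8 genes), and the lymphatic list in endothelial cells 3 (8937 CPM over 6 genes). The labels themselves name neither Schwann nor lymphatic cells. Nerve cells 3 had 8935 CPM of the Schwann list, the perineurial list was highest in endothelial cells 3 (578 CPM over 6 genes), and the skeletal muscle list did not exceed 18.2 CPM as a population mean. The endothelial list was at 8011 CPM in endothelial cells 3 and 7474 in endothelial cells 1, the tendon fibroblast list at 102212 in tendon fibroblasts 1, the immune list at 11856 in immune cells, and the red blood cell list at 944715 in red blood cells. Some barcodes carried 2 marker sets. Of 107 pericytes, 15 held 10 or more UMIs of the 8 endothelial markers (8, 3, 2 and 2 in libraries 1 to 4), and each of these held at least 24 while the rest held at most 9. Likewise 12 of 190 endothelial cells 1 and 6 of 74 endothelial cells 2 carried 10 or more UMIs of the pericyte list. In library 4 a single barcode gave 43707 of the 49531 UMIs of the 5 nerve cells 3. That sum held 6138 CPM of the Schwann list, 1555 of the pericyte and smooth muscle list and 444 of the immune list. In libraries 1 and 2, nerve cells 3 had 37.8 and 0 CPM of the pericyte list and 0 and 27.5 of the immune list. Results that move without these barcodes are given both ways or library by library.

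Vessels, fibroblasts and nerve all carried these transcripts, and blood and immune cells hardly did. Endothelial cells held 32.4% ± 10.0 (SD, n = 4 libraries) of the 9 genes' UMIs, tendon fibroblasts 32.6% ± 24.9, pericytes 16.1% ± 9.58, nerve cells 12.9% ± 13.4 and bursal fibroblasts 5.59% ± 4.34. Immune cells held 0.310% ± 0.241 and red blood cells 0.0924% ± 0.185, although they made up 5.60% and 13.3% of cells. These shares follow how many cells of each kind a library caught: tendon fibroblasts were 6.19% of the 9 genes' UMIs in library 2 and 65.1% in library 3. After each cell was thinned to 2400 UMIs, 1 of 106 red blood cells had a UMI of any of the 9 genes (0.943%, exact 95% interval 0.0239% to 5.14%, counting error only), against 170 of 176 endothelial cells 1 (96.6%). The red blood cell list, 4 globin genes, took 944715 CPM of red blood cells. Few of their 2400 UMIs were thus left for other genes, so these shares are not at equal depth outside globin. Of 15 UMIs in 145 unthinned red blood cells, 14 were in 1 cell of library 2. Of the 92 immune cells, 42 held a UMI before thinning, and 30 of their 67 UMIs were Lamc1.

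**Figure D1:**
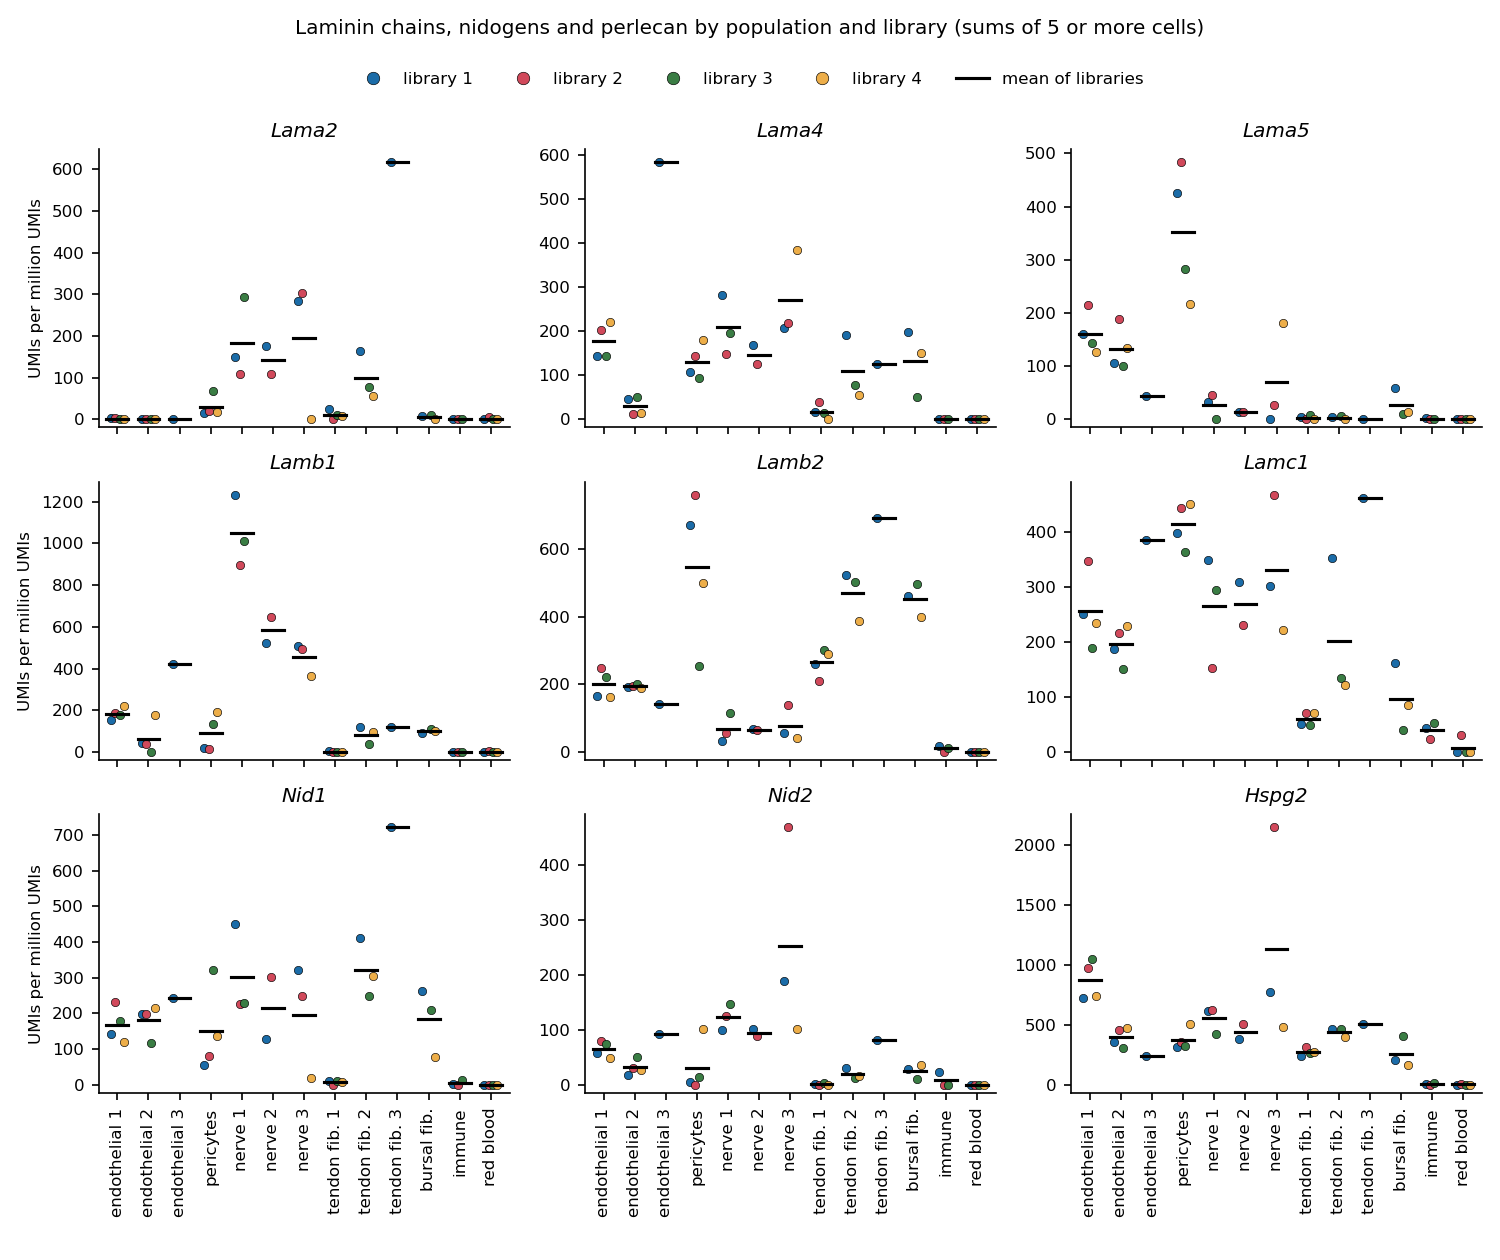
CPM (y axis) of each gene in each of 13 populations (x axis); a point is the sum of a library's cells of that population, a line is the mean over libraries. Lamb1 stands at 363 to 1234 CPM in the nerve populations, and Lama5 at 216 to 484 CPM in pericytes; endothelial cells 3 and tendon fibroblasts 3 have 1 point because library 1 alone held 5 or more of these cells.

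The alpha chains divided the tissue. Lama2, the alpha 2 chain of muscle and nerve basement membrane, was highest in tendon fibroblasts 3 and the nerve populations. In nerve cells 1 it stood at 150, 108 and 294 CPM in libraries 1, 2 and 3, in tendon fibroblasts 2 at 164, 76.7 and 56.4 CPM in libraries 1, 3 and 4, and in tendon fibroblasts 3 of library 1 at 618 CPM (exact Poisson 95% interval 531 to 714, counting error only). The nerve and tendon fibroblast 2 values overlapped, and all 3 were above every value of endothelial cells 1, which were 2.97, 4.16, 0 and 0 CPM. In endothelial cells 2 and 3 no Lama2 UMI was found, which in 69 thinned cells of the former allows a share of cells with a UMI of up to 4.35%. Bursal fibroblasts, the lining of the fluid-filled pad beside the tendon, had 6 UMIs of Lama2 in all, with 8.45, 9.96 and 0 CPM.

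Lama4, the alpha 4 chain of vessel and nerve laminins, was more widespread. It was highest in endothelial cells 3, at 585 CPM (497 to 684) in library 1, the population with the lymphatic markers. Nerve cells 3 had 208, 220 and 384 CPM in libraries 1, 2 and 4, endothelial cells 1 had 144, 204, 143 and 222 CPM, and pericytes had 107, 143, 94.1 and 181 CPM. Endothelial cells 1 overlapped with both of the others, while nerve cells 3 and pericytes did not overlap. Endothelial cells 2 lay below all 3, at 47.1, 12.6, 50.5 and 13.5 CPM, as did tendon fibroblasts 1 at 15.9, 39.1, 13.5 and 0 CPM.

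Lama5, the alpha 5 chain of mature vessel walls, was highest in pericytes and in endothelial cells 1 and 2. Pericytes had 425, 484, 282 and 216 CPM, all above the 161, 214, 143 and 126 CPM of endothelial cells 1, which overlapped with the 105, 188, 101 and 135 CPM of endothelial cells 2. In tendon fibroblasts 1 and 2 it did not exceed 8.09 CPM in any library, and in tendon fibroblasts 3 it was at 0 UMIs. After thinning, 64 of 104 pericytes (61.5%) had a Lama5 UMI, 70 of 176 endothelial cells 1 (39.8%) and 2 of 32 endothelial cells 3 (6.25%, 0.766% to 20.8%).

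Shares of the 3 alpha chains within a population put these patterns on a scale where the total UMIs of a sum cancel. Depth per cell does not cancel, and thinning moved some of the shares, as given in the last section. With thinned cells Lama5 in place of Lama4 held the larger mean share in endothelial cells 1. In tendon fibroblasts 2, Lama2 then held a larger share than Lama4. Before thinning, Lama5 already led in endothelial cells 1 of library 1 (52.2% against 46.8%) and library 2 (50.7% against 48.3%). The shares were equal in library 3, and Lama4 led in library 4 (63.9% against 36.1%). Libraries under 20 alpha UMIs after thinning were left out. Whether depth or the set of libraries moved these shares was not tested. UMIs of different genes can be captured unequally, so the shares are compared between populations only. In endothelial cells 1 the alpha UMIs were 52.2% ± 7.88 Lama4 and 47.3% ± 7.50 Lama5 (n = 4). Endothelial cells 2 were 81.4% ± 17.5 Lama5 (n = 2), and endothelial cells 3 were 92.9% Lama4 (88.0% to 96.3%, 1 library). Pericytes were 67.0% ± 11.6 Lama5 (n = 4), or 75.7% without the barcodes that carried endothelial markers. Tendon fibroblasts 2 were 46.6% ± 1.25 Lama2 and 51.1% ± 3.04 Lama4 (n = 2), tendon fibroblasts 3 were 83.2% Lama2 (77.6% to 87.9%), and bursal fibroblasts were 82.9% ± 11.9 Lama4 (n = 2). Nerve cells 1 to 3 held Lama2 and Lama4 at 37.6% ± 26.3 and 50.1% ± 14.6 (n = 4). The wide spread came with library 4, whose 20 Lama4 UMIs stood beside 0 of Lama2 and whose sum was 83.6% 1 barcode. In libraries 1, 2 and 3 Lama2 was at 46.7%, 42.6% and 61.1%, and Lama4 at 49.5%, 48.8% and 33.3%. Which of these chains led thus differed between libraries.

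The beta chains also divided the populations. Lamb1, the beta 1 chain, was highest in nerve: nerve cells 1 had 1234, 897 and 1013 CPM in libraries 1, 2 and 3, nerve cells 2 had 524 and 647 CPM in libraries 1 and 2, and nerve cells 3 had 510, 495 and 363 CPM in libraries 1, 2 and 4. The 3 ranges did not overlap, and each lay above every replicated population outside nerve. Endothelial cells 1 followed with 156, 185, 179 and 219 CPM, and endothelial cells 3 of library 1 had 422 CPM (348 to 507). Tendon fibroblasts 1 held 4 Lamb1 UMIs in 173 cells, at 4.77, 0, 1.35 and 0 CPM. After thinning, 1.24% of them had a Lamb1 UMI, under the 3.45% that 0 of 87 immune cells allows, so this share is not read as expression.

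Lamb2, the beta 2 chain, was highest in tendon fibroblasts 3 and 2, pericytes and bursal fibroblasts. Pericytes had 670, 761, 255 and 499 CPM, tendon fibroblasts 2 had 523, 503 and 387 CPM, bursal fibroblasts had 460, 498 and 399 CPM, and tendon fibroblasts 3 had 692 CPM (600 to 793). The 3 replicated populations overlapped. Tendon fibroblasts 1, which held 4 Lamb1 UMIs, had 259, 211, 302 and 291 CPM of Lamb2. In the nerve populations Lamb2 stayed between 33.3 and 138 CPM. As a share of both beta chains, Lamb1 made up 91.1% ± 0.987 in nerve cells 1 to 3 (n = 4), 48.2% ± 6.36 in endothelial cells 1 (n = 4), 18.1% ± 1.85 in bursal fibroblasts (n = 3), 10.1% ± 4.07 in tendon fibroblasts 1 to 3 (n = 4) and 0.563% ± 0.856 in tendon fibroblasts 1 (n = 4).

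**Figure D2:**
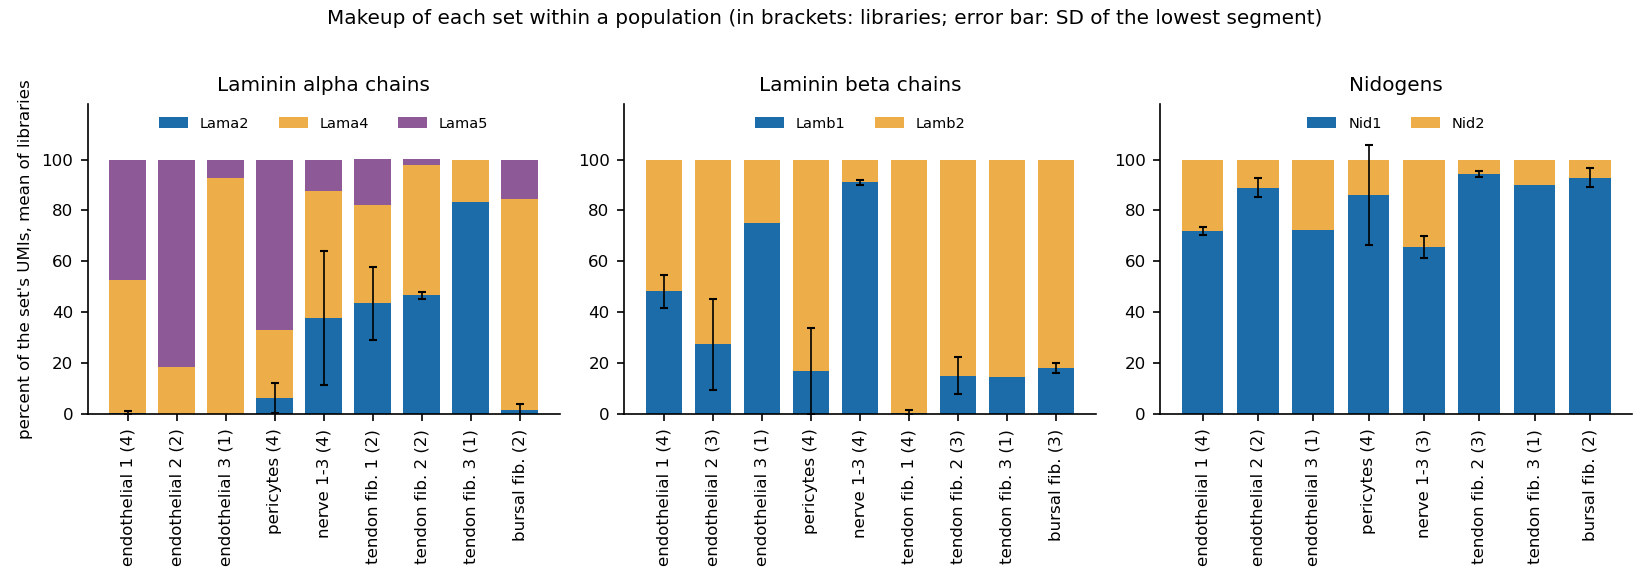
Percent of the UMIs of a set (y axis) held by each of its genes in each population (x axis, number of libraries in brackets), for alpha chains, beta chains and nidogens; error bars are the SD over libraries of the lowest segment. The Lamb1 segment fills 91.1% of the beta bar in nerve cells 1 to 3 and 0.563% in tendon fibroblasts 1.

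Because Lamb1 and Nid1 were both lower in tendon fibroblasts 1 than in tendon fibroblasts 2 while Lamb2 did not pass the test, the bases just before the start of these 3 genes are shown. They are from RefSeq on GRCm38.p6, whose promoter table held 6 of the 9 genes (not Lama4, Lamc1 or Nid2), read 5′ to 3′ on the gene's strand and limited to bases outside every exon of GENCODE M21. Capitals mark a GC box (GGGCGG, or CCGCCC on the other strand) and an ETS core (CCGGAA, or TTCCGG on the other strand); the motifs do not share bases here. TATAAA and its reverse TTTATA were searched too.
Lamb1 (chr12:31265043-31265233, plus strand): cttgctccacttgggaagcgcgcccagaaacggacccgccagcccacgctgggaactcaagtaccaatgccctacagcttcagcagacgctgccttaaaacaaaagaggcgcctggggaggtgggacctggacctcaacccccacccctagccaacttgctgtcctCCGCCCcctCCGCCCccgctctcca
Nid1 (chr13:13437352-13437550, plus strand): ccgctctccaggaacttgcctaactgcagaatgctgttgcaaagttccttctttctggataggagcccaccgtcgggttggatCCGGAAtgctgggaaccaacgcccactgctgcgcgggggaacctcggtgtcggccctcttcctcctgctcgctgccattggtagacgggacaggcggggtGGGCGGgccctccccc
Lamb2 (chr9:108479612-108479735, plus strand): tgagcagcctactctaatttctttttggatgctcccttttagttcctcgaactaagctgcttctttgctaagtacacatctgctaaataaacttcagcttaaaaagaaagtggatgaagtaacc
Lamb1 showed 2 GC boxes in these bases, Nid1 1 GC box and 1 ETS core, and Lamb2 none of them. In the full 250 bases before the start, a GC box was found in 4 of the 6 genes, an ETS core in 1 and a TATA box in 0. Of all 32851 promoters of that length, 32.7% held a GC box, 12% an ETS core and 12.4% a TATA box. G and C made up 62% of the 250 bases of Lamb1, 64.4% of Nid1 and 43.6% of Lamb2. Hspg2, which also did not pass between tendon fibroblasts 1 and 2, had 5 GC boxes in its 250 bases and 70% G and C. Lama2, which was lower in tendon fibroblasts 1, had 0 GC boxes and 47.2% G and C. A link between these bases and the levels was not tested.

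Lamc1, the gamma 1 chain shared by nearly all of these laminins, had the flattest profile of the chains. It was at 399, 443, 363 and 451 CPM in pericytes, at 251, 347, 190 and 235 CPM in endothelial cells 1 and at 462 CPM (388 to 547) in tendon fibroblasts 3. Nerve populations lay between 153 and 468 CPM and overlapped with endothelial cells 1. Of the nerve populations, nerve cells 3 (222 to 468 CPM) overlapped with pericytes, and nerve cells 1 and 2 did not. Tendon fibroblasts 1 were low at 50.9, 70.3, 49.9 and 71.7 CPM, close to the 44.5, 23.2 and 52.8 CPM of immune cells.

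Nid1, the main nidogen, had its highest means in tendon fibroblasts 3 and 2 and its lowest, outside immune and red blood cells, in tendon fibroblasts 1. It stood at 722 CPM (629 to 826) in tendon fibroblasts 3, at 412, 250 and 306 CPM in tendon fibroblasts 2, and at 11.1, 0, 9.44 and 7.55 CPM in tendon fibroblasts 1. Bursal fibroblasts had 264, 209 and 78.3 CPM, and nerve cells 1 had 450, 227 and 229 CPM. Tendon fibroblasts 2 and nerve cells 1 overlapped, and so did bursal fibroblasts with the endothelial cells 1 and 2 and the pericytes. Nid2, its close relative, was highest in the nerve populations: nerve cells 3 had 189, 468 and 101 CPM, nerve cells 1 had 100, 125 and 147 CPM, and endothelial cells 1 had 57.4, 79.0, 73.9 and 48.3 CPM. In library 1, tendon fibroblasts 3 had 81.0 CPM of Nid2 on 24 UMIs (51.9 to 121). That interval takes in the values of endothelial cells 1 in libraries 1, 2 and 3. Endothelial cells 2 averaged 31.8 CPM over 4 libraries. Nid2 made up 34.4% ± 4.24 of the nidogen UMIs in nerve cells 1 to 3 (n = 3), 28.1% ± 1.71 in endothelial cells 1 (n = 4), 8.69% (6.28% to 11.1% over 4 libraries) in tendon fibroblasts 1 to 3 and 5.60% ± 1.16 in tendon fibroblasts 2 (n = 3).

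Hspg2 was found in every population outside blood and immune cells, in 40.6% to 94.7% of their thinned cells. It had 721, 977, 1050 and 738 CPM in endothelial cells 1, 353, 458, 303 and 473 CPM in endothelial cells 2, and 775, 2146 and 485 CPM in nerve cells 3, where library 2 lay far above the others on 78 UMIs in 12 cells. Even tendon fibroblasts 1 had 243, 313, 262 and 276 CPM, and Hspg2 and Lamb2 were the members that this population held in every library above 200 CPM, a count of 3′ ends that needs no scaling to gene length. A cell of tendon fibroblasts 1 had on average 1.20 of the 9 genes detected at 2400 UMIs, against 3.06 in tendon fibroblasts 2, 3.00 in endothelial cells 1, 3.13 in pericytes and 4.63 in nerve cells 3. Thinning left out 13 of the 32 nerve cells 3. Over all cells at their own depth the means were 2.38 in tendon fibroblasts 1, 5.08 in tendon fibroblasts 2, 5.16 in endothelial cells 1, 5.07 in pericytes and 4.44 in nerve cells 3. A UMI of an alpha, a beta and the gamma chain in the same cell was seen in 0 of 161 thinned tendon fibroblasts 1 (a share of up to 1.86% is allowed), in 25 of 148 tendon fibroblasts 2 (16.9%), and in 41 of 104 pericytes (39.4%). Without thinning those shares were 6.36%, 62.8% and 88.8%.

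**Figure D3:**
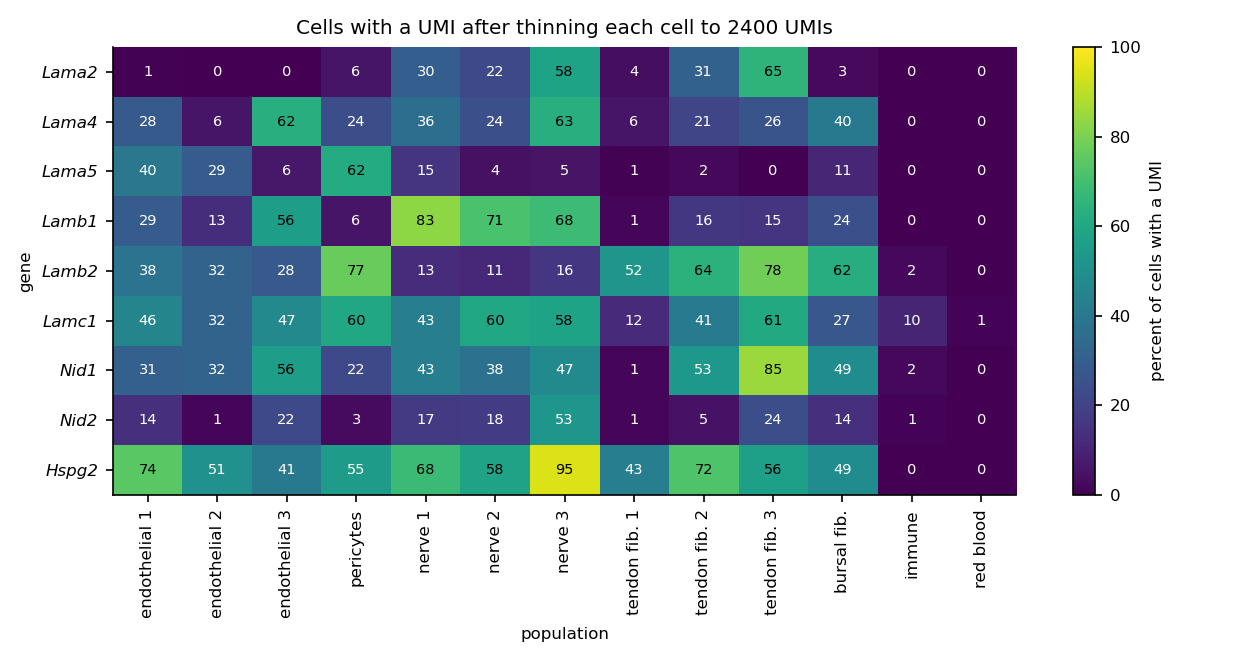
Percent of cells with a UMI of each gene (rows) in each population (columns) after every cell was thinned to 2400 UMIs; colour and number give the percent. Lamb1 reaches 83.0% in nerve cells 1 and 1.24% in tendon fibroblasts 1, and Lamc1 reaches 10.3% in immune cells and 0.943% in red blood cells.

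Differences between populations were tested on the sums with the quasi-likelihood test of edgeR, with the library as a block and Benjamini-Hochberg adjusted p over all genes tested, at 0.05. Values are log2 fold changes ± SE on the scale of edgeR's TMM factors, which centre most genes near 0. Where a side held few UMIs, the SE can be smaller than counting error. Lama2 in tendon fibroblasts 1 to 3 against endothelial cells 1 had 440 against 5 UMIs and 6.09 ± 0.38. Its ratio of CPM was 44.8, with an exact interval of 19.1 to 139 for counting error only, which is wider than that SE implies. On library totals alone the median gene shifted by -0.46 in tendon fibroblasts 1 to 3 against endothelial cells 1, by 0.40 in nerve cells against tendon fibroblasts, by 0.36 in pericytes against tendon fibroblasts, and by -0.19 to 0.08 in the other 4 comparisons. Calls in the higher direction went from 50.6% to 26.4% of all calls in the first of these, from 43.0% to 63.7% in the second and from 48.8% to 70.2% in the third, and from 53.3% to 39.0% in tendon fibroblasts 1 against 2.

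Pericytes differed from endothelial cells 1, the cells they wrap, in 5 of the 8 members that passed the low-count filter (Lama2 did not), against 34.2% of all genes tested. Of all genes 16.6% were higher and 17.6% lower, and of the members 3 and 2. Lama5, Lamb2 and Lamc1, which encode an alpha, a beta and a gamma chain, were higher in pericytes in 4 of 4 libraries, by 1.26 ± 0.20 (adjusted p = 6.1e-04), 1.61 ± 0.28 (0.00128) and 0.83 ± 0.18 (0.0052). Hspg2 was lower in 4 of 4 libraries, by -1.08 ± 0.21 (adjusted p = 0.00276). Lamb1 was lower too, at 21.8, 14.6, 134 and 194 CPM in pericytes, with -1.47 ± 0.47 (adjusted p = 0.0357). The 2 pericytes of library 4 that carried endothelial markers held 37 of its 44 Lamb1 UMIs and 22 of its 23 Nid2 UMIs.

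Without the barcodes carrying both marker sets, a setting chosen after the values were seen, 7 of the 8 members passed, among 4689 genes tested. The share of all genes called in this setting is not given here. Lamb1 in pericytes was then 10.3, 18.2, 156 and 48.9 CPM and the difference -2.39 (adjusted p = 6.1e-06), Nid2 was 5.17, 0, 26.0 and 6.99 CPM with -3.54 (9.01e-06), and Nid1 passed with -0.67 (0.0416). With all cells, Nid2 had -1.43 ± 0.75 (adjusted p = 0.175) and Nid1 -0.44 ± 0.34 (0.369). The endothelial list in pericytes fell from 820 to 2891 CPM to between 202 and 443 CPM by that step, against 7032 to 8031 CPM in endothelial cells 1. Pericytes were left out by this same list, so the fall was fixed in advance. Genes whose UMIs go with that list fall by the same step. The calls of Lamb1, Nid2 and Nid1 in this setting are thus not independent of the selection. With all cells, Lamb1 lost its call without library 1 (-1.05, adjusted p = 0.173) or without library 2 (-1.01, 0.135), moved to -2.28 without library 4, and missed it with no library block (-1.23, 0.0966). Lamc1 missed it in 1 fit over all populations (0.74, adjusted p = 0.092).

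**Figure D4:**
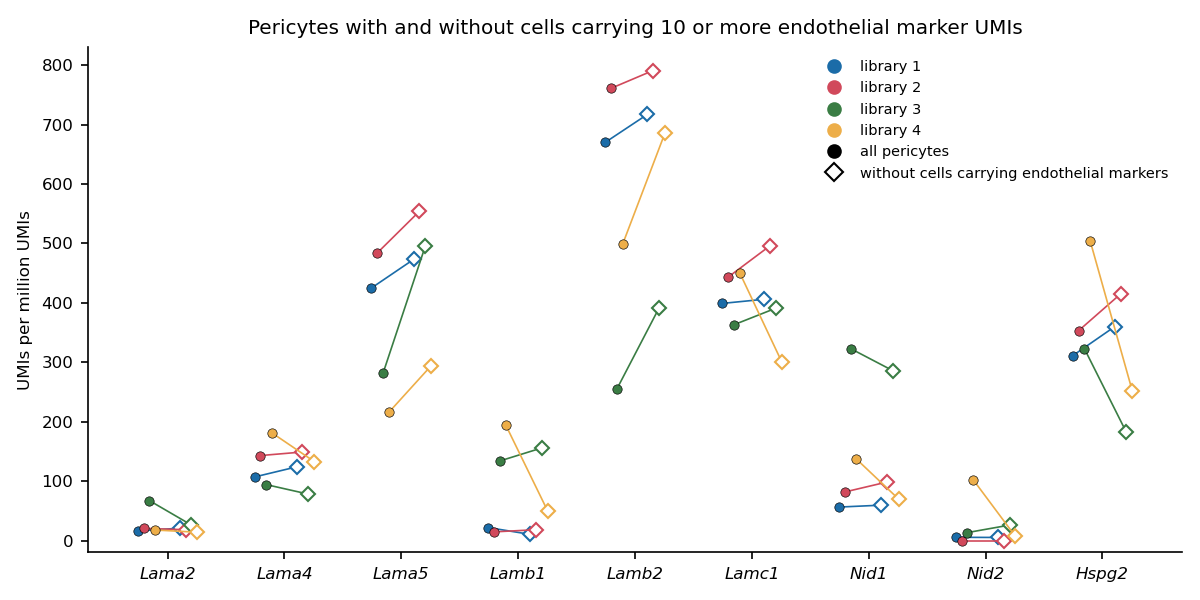
CPM (y axis) of the 9 genes (x axis) in the pericytes of each library; filled circles are all pericytes and open diamonds those left after removing cells with 10 or more UMIs of 8 endothelial markers. In library 4, Nid2 goes from 102 to 6.99 CPM and Lamb1 from 194 to 48.9 CPM, while Lamb2 goes up in every library.

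Of 27 other basement membrane genes in the table, 12 were tested in the same fit and 3 were higher and 3 lower in pericytes, with a median of -0.07 against -0.01 for all genes. Col4a5, a collagen IV chain, had 109 CPM ± 42.6 (SD, n = 4) in pericytes and no UMI in endothelial cells 1, at least 81.2-fold higher against a floor of 3 counts over the 4 libraries. Ntn4, a netrin that binds laminin, rose by 4.77 ± 0.28 (adjusted p = 2.6e-06), and Col15a1 was lower at -3.39 ± 0.72 (0.00421). Of 16 receptors, 11 were tested, and 6 were higher and 2 lower, with a median of 0.82. Sdc2 had the largest change, 7.70 ± 0.45, and Sdc3 was lower at -3.57 ± 0.30. Itga7, the integrin alpha chain of muscle laminin receptors, had 229 CPM ± 97.8 against 11.7 CPM ± 10.6 and rose by 4.45 ± 0.43 (adjusted p = 3.1e-05).

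Endothelial cells 1 exceeded endothelial cells 2 in 4 of 8 tested members, against 18.2% of all genes called in either direction and 7.74% called higher. Lama4 rose by 2.40 ± 0.36 (adjusted p = 1.1e-04) and Hspg2 by 1.03 ± 0.18 (4.8e-04), and for both the ranges over libraries did not overlap, as for 19.7% of all genes. Lamb1, at 41.9, 37.7, 0 and 176 CPM in endothelial cells 2, differed by 1.69 ± 0.34 (adjusted p = 0.00165), with the 176 CPM resting on 13 UMIs. Nid2 differed by 1.21 ± 0.33 (adjusted p = 0.0155), a call lost without library 1 (1.03, 0.145), without library 2 (1.18, 0.138) and in the fit over all populations (1.20, 0.26). Lama5 (0.26 ± 0.21), Lamb2 (-0.04 ± 0.19), Lamc1 (0.36 ± 0.19) and Nid1 (-0.24 ± 0.22) did not pass. Without library 1, Lama4 stood at 3.31. The collagen IV chains went the same way: Col4a1 had 1987 CPM ± 411 against 630 CPM ± 359 and rose by 1.65 ± 0.25 (adjusted p = 1.2e-04), one of 3 other basement membrane genes that were higher, with 1 lower, of 10 tested. Of 9 receptors tested 2 were higher and 2 lower. The higher ones were Sdc3 (2.87 ± 0.34) and Itga1 (1.86 ± 0.22). Itgb4, the integrin beta chain that pairs with alpha 6 to bind laminin, fell by 1.90 on the log2 scale, with 48.1 CPM ± 39.9 against 175 CPM ± 32.1 (SE 0.35, adjusted p = 8.2e-04).

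Tendon fibroblasts 1 to 3 and endothelial cells 1 differed in 7 of 9 members, where 44.7% of all genes did (22.6% higher and 22.1% lower) and the ranges of 49.3% did not overlap. The alpha chains gave the largest differences. Lama2, at 191, 126, 46.6 and 40.4 CPM in the summed fibroblasts, rose by 6.09 ± 0.38 (adjusted p = 3.4e-08), and Lama5, at 3.52, 0, 6.83 and 0 CPM, fell by 4.74 on the log2 scale (SE 0.37, adjusted p = 2.6e-07). Lama2 stood at 7.07 without the barcodes that carried both marker sets. Lamb2 was higher by 1.47 ± 0.19 (adjusted p = 2.7e-05) and Lamb1 lower by -1.55 ± 0.29 (6.8e-04), each in 4 of 4 libraries. Nid2 and Hspg2 were also lower, at -1.24 ± 0.33 (adjusted p = 0.00852) and -0.77 ± 0.17 (0.00188). Nid1 passed with 0.72 ± 0.24 (adjusted p = 0.0285), but its CPM was higher in 2 of 4 libraries, and the call was lost on library totals (0.25, 0.426), without library 1 (0.35, 0.278), without library 4 (0.70, 0.107) and in the fit over all populations (0.55, 0.304). Lama4 (-0.66 ± 0.27, adjusted p = 0.0684) passed on library totals (-1.13, 0.00475) and without library 1 (-1.04, 0.00943), and Lamc1 (-0.21 ± 0.22, 0.48) passed on library totals (-0.68, 0.0251). Without library 3, Lama5 stood at -5.49. The libraries differ in which tendon fibroblasts they hold: population 3 made up 45, 3, 1 and 2 of the cells in libraries 1 to 4.

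Of 12 other basement membrane genes tested, 4 were higher and 7 lower in the fibroblasts, with a median of -1.36 (0.02 for all genes). Tinagl1, a matrix protein of vessels, fell by 7.74 (SE 0.38, adjusted p = 4.6e-09), from 891 CPM ± 202 to 3.71 CPM ± 5.54. Fbln1, a fibulin of loose matrix, had 829 UMIs against 2, a ratio of CPM of 211 (exact 95% interval 58.3 to 1746). Of 13 receptors, 5 were higher and 5 lower, with a median of -0.39. Sdc2 (8.82 ± 0.40) and Gpc1 (8.81 ± 0.66) had the largest changes. Sdc4, a syndecan, rose by 6.20 ± 0.37 (adjusted p = 2.7e-08).

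**Figure D5:**
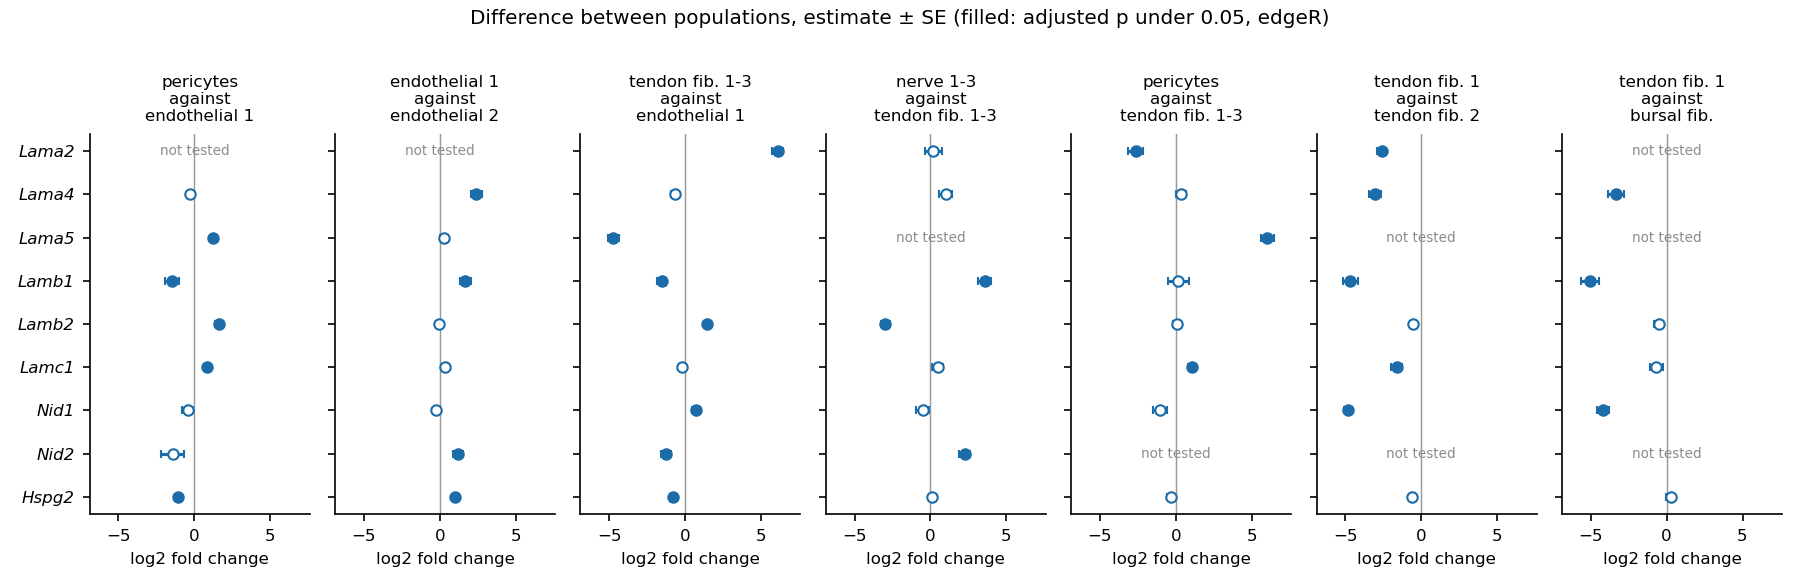
Log2 fold change ± SE (x axis) of each gene (y axis) in the 7 comparisons, first-named population over second; filled points have an adjusted p under 0.05 and "not tested" marks genes under the low-count filter. Lamb1 lies at 3.56 in nerve cells against tendon fibroblasts and at -4.67 in tendon fibroblasts 1 against 2, while Lamb2 lies at -2.98 and -0.55.

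Nerve cells 1 to 3 and tendon fibroblasts 1 to 3 held opposite beta chains. Of 8 tested members 3 passed, where 28.7% of all genes did. Lamb1 had 684, 715, 841 and 344 CPM in nerve cells against 76.2, 45.9, 20.5 and 38.0 CPM in tendon fibroblasts, and rose by 3.56 ± 0.44 (adjusted p = 4.7e-04). Lamb2 had 57.3, 66.4, 86.6 and 38.3 CPM against 455, 350, 417 and 345 CPM, and fell by 2.98 on the log2 scale (SE 0.31, adjusted p = 2.2e-04). Nid2 rose by 2.25 ± 0.36 (adjusted p = 0.00168), with 118, 124, 111 and 95.6 CPM against 28.7, 22.9, 9.31 and 14.3 CPM. The ranges of these 3 genes did not overlap, as for 34.3% of all genes tested, and neither did those of Lama4, Hspg2 and the untested Lama5. Lama5, which did not pass the filter, had 15.3, 24.5, 24.7 and 172 CPM against 3.52, 0, 6.83 and 0 CPM. Lama2, with 191, 121, 272 and 0 CPM in nerve cells, had 0.19 ± 0.58 (adjusted p = 0.858). Lama4, with 202, 138, 148 and 383 CPM against 115, 120, 49.0 and 42.8 CPM, missed the threshold (adjusted p = 0.126), and passed on library totals (1.41, 0.0458) and in the fit over all populations (0.97, 0.0327). Hspg2, with 516, 645, 433 and 459 CPM against 391, 379, 371 and 316 CPM, was higher in 4 of 4 libraries on this scale of totals, and had 0.13 ± 0.26 (adjusted p = 0.764) on the TMM scale. Without library 4, whose nerve sum was mostly 1 barcode, Lamb1, Lamb2 and Nid2 stood at 3.74, -2.93 and 2.16 and all passed, and the genes called among all tested went from 1400 to 2288.

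Other basement membrane genes lay mostly on the fibroblast side, with 1 higher and 6 lower in nerve cells of 10 tested, and a median of -1.96 against -0.06. Ntn4 fell by 5.45 (SE 0.85, adjusted p = 0.00159), from 274 CPM ± 100 to 24.3 CPM ± 47.5. Among 13 receptors, 4 were higher and 2 lower, with a median of 0.67. The lower ones were Sdc1 (-7.23 ± 0.70) and Sdc2 (-3.28 ± 0.58). Mcam, an adhesion molecule that binds the laminin alpha 4 chain, rose by 5.01 ± 0.49 (adjusted p = 1.5e-04), with 239 CPM ± 160 against 7.14 CPM ± 6.78.

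Pericytes and tendon fibroblasts 1 to 3 differed in their alpha chains. Of 8 tested members 3 passed, close to the 32.5% of all genes, of which 15.8% were higher in pericytes and 16.6% lower. Lama5 rose by 6.03 ± 0.43 (adjusted p = 1.3e-06), Lama2 fell by 2.64 on the log2 scale (SE 0.50, adjusted p = 0.00159), and Lamc1 rose by 1.06 ± 0.28 (0.0116). In pericytes Lama2 had 16.3, 20.4, 67.2 and 17.7 CPM, and its difference was -1.73 without library 1. Without library 3, Lama5 stood at 6.90. Lamc1 lost its call without library 4 (0.78, adjusted p = 0.0771). Lamb2 (0.08 ± 0.29, adjusted p = 0.872), Lama4 (0.33 ± 0.33, 0.492), Lamb1 (0.15 ± 0.69, 0.915) and Hspg2 (-0.34 ± 0.23, 0.296) did not pass. Nid1 had -1.05 ± 0.46 (adjusted p = 0.11) with all cells, -1.38 (0.00932) without the barcodes carrying both marker sets and -1.65 (0.00283) without library 3. Lamb1 turned to -1.03 (adjusted p = 0.22) without those barcodes. The Nid1 and Lamb1 values without those barcodes are not independent of the selection by endothelial markers. Of 14 other basement membrane genes, 6 were higher and 5 lower in pericytes, with a median of 1.06 (0.01 for all genes). Tinagl1 rose by 7.71 ± 0.47 (adjusted p = 4.0e-07). Of 13 receptors, 6 were higher and 5 lower; Mcam rose by 6.56 ± 0.34 (adjusted p = 1.5e-07) and Bcam, a receptor of the laminin alpha 5 chain, by 4.91 ± 0.54 (2.9e-05).

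Within the tendon fibroblasts, population 1 held less of most tested members than population 2. In the 3 libraries with 5 or more cells of both (1, 3 and 4), 5 of 7 tested members passed and all 5 were lower in tendon fibroblasts 1, where 8.12% of all genes were called, 4.33% higher and 3.79% lower. Nid1 had 11.1, 9.44 and 7.55 CPM against 412, 250 and 306 CPM, and fell by 4.82 on the log2 scale (SE 0.28, adjusted p = 2.2e-05). Lamb1 had 4.77, 1.35 and 0 CPM against 118, 37.2 and 96.7 CPM, and fell by 4.67 (SE 0.49, adjusted p = 4.3e-04). Lama4 fell by 3.06 (SE 0.39, adjusted p = 0.00124) and Lama2 by 2.61 (SE 0.30, adjusted p = 7.1e-04), each lower in 3 of 3 libraries. Lamc1 fell by 1.62 (SE 0.35, adjusted p = 0.0193), a call lost without library 1 (-1.04, 0.193). Without library 1, Lamb1 stood at -5.28 and the genes called among all tested went from 572 to 362.

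The members that tendon fibroblasts 1 kept were lower by less. Lamb2 had 259, 302 and 291 CPM against 523, 503 and 387 CPM, a difference of -0.55 ± 0.22 (adjusted p = 0.203), and Hspg2 had 243, 262 and 276 CPM against 467, 467 and 395 CPM, a difference of -0.59 ± 0.21 (0.157). The 7 tested members all had ranges that did not overlap, where 26.0% of all genes tested did not. The ranges of Nid2, which was not tested, did not overlap either, and those of Lama5 did. The median of the 7 tested members was -2.61 against 0.01 for all genes. Lama5 and Nid2 did not pass the filter; Nid2 had 1.59, 2.70 and 0 CPM against 30.7, 12.8 and 16.1 CPM. Of 12 other basement membrane genes 4 were lower and 0 higher, among them both major collagen IV chains, Col4a1 at -2.93 ± 0.24 (adjusted p = 1.1e-04) and Col4a2 at -1.66 ± 0.22 (0.00164). Of 11 receptors, 3 were higher and 1 lower; Sdc1, a syndecan, rose by 1.72 ± 0.35 (adjusted p = 0.0143), a call lost without library 1 (1.16, 0.093) and with no library block (1.46, 0.074).

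Against bursal fibroblasts, tendon fibroblasts 1 were again lower in Lamb1, Nid1 and Lama4. Of 6 tested members 3 passed, all lower in tendon fibroblasts 1, where 15.0% of all genes were called, 8.99% higher and 6.00% lower. Lamb1 fell by 5.02 on the log2 scale (SE 0.59, adjusted p = 3.3e-05), Nid1 by 4.18 (SE 0.41, 6.9e-06) and Lama4 by 3.33 (SE 0.54, 5.6e-04), the last lost without library 1 (-2.94, adjusted p = 0.103) and at -4.12 without library 3; Lamb1 stood at -5.97 without library 1. Lama2 did not pass the filter, with 23.9, 10.8 and 7.55 CPM in tendon fibroblasts 1 and 8.45, 9.96 and 0 CPM in bursal fibroblasts. Lamb2 (-0.51 ± 0.29, adjusted p = 0.315), Lamc1 (-0.67 ± 0.43, 0.372) and Hspg2 (0.26 ± 0.32, 0.699) did not pass. Both comparisons use the same tendon fibroblasts 1, so they are not independent. Of 7 other basement membrane genes tested, 4 were higher and 2 lower in tendon fibroblasts 1. Col15a1, a collagen at the edge of basement membranes, had 973 UMIs against 1, a ratio of CPM of 495 (88.7 to 19579), and Col4a1 was lower at -3.80 ± 0.35 (adjusted p = 4.3e-06). Among 10 receptors, 4 were higher and 2 lower; Itga6, the laminin-binding integrin alpha 6 chain, was lower at -5.96 ± 0.42 (adjusted p = 5.3e-07), with 9.40 CPM ± 4.94 against 643 CPM ± 298.

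The genes most like each member were taken from the correlation of log2 levels over the 13 population means, among 7293 genes, as a description over points that share libraries. Lamb1 was closest to Prss23 (Pearson r = 0.92), Lama4 (0.92) and Col4a1 (0.91), Lama4 to Col4a2 (0.93), Lama5 to the laminin-binding integrin chain Itga3 (0.94), and Nid1 to Ddah2 (0.97) and Lamc1 (0.93). Lamb2 was closest to Serpinh1 (0.95), the collagen chaperone, and Hspg2 to Ndst1 (0.97), an enzyme of heparan sulfate synthesis. Lama2 was closest to Galnt17 (0.95), Lamc1 to Ubqln2 (0.96) and Nid2 to 4930402H24Rik (0.93). With Spearman's rank correlation, Lama2 kept 1 and Lamc1 2 of their 3 most alike genes and the other 7 members kept 0. Among the members themselves, Lama2 and Lama5 were the least alike pair (-0.13).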

How the data were processed

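Single cells of Achilles tendons were counted with a droplet method that tags 3′ ends (10x Chromium, version 3 chemistry, per the labels' protocols). The deposited table holds raw counts, that is UMIs per gene and cell, with the authors' population for each cell in a second table. The submitters' processing notes name Cell Ranger, Seurat 2.3.4, R 3.5.2 and the build mm10; their filters on cells and doublets are not given in the sources used here, and no doublet caller was run. All deposited cells were used, each with at least 1010 UMIs. Of 15750 gene entries, 4 with a repeated name (0.0186% of UMIs) were left out.

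UMIs were summed per library and population (5 or more cells, 3 or more libraries) and tested with edgeR 4.0.16 (filterByExpr, TMM, library block) in R 4.3.3, checked on simulated data. DESeq2 1.42.0, other filters and scalings and leaving out each library were alternatives. Sums of the same library come from the same suspension, so the library was a block; deviations of same-library sums correlated at -0.0282 to 0.147 over 26 pairs. For shares of cells, each cell was thinned to 2400 UMIs, leaving out 114 cells. Intervals are exact 95% intervals and cover counting error only; 0 was read against 3 counts. The text names all 9 members. Of 28 other basement membrane genes and 16 receptors, it draws, per comparison and list, on the 3 called genes with the largest changes. These had at least 50 CPM on the higher side, and not all of them are named. Likeness used log2(CPM + 1). Members and lists were chosen with earlier results of these data known.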

Additional observations from a re-analysis of the deposited data

Results flagged for a closer look

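Of 47 sets of 4 libraries with 20 or more UMIs, 3 had a library far from the others by Dixon's criterion at 95%, where chance flags about 1 in 20 sets. Lama2 in pericytes was 67.2 CPM in library 3, with a gap of 0.920 of the range; 4 of its 5 UMIs there were in the 2 cells that carried endothelial markers. Nid2 in pericytes was 102 CPM in library 4, with a gap of 0.868 of the range; 22 of its 23 UMIs were in 2 such cells. Lama5 in nerve cells 1 to 3 was 172 CPM in library 4, with a gap of 0.940 of the range; 8 of its 9 UMIs were in 1 cell.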

How the results depend on the processing

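Of 632 values of the 9 genes under alternatives, 576 kept direction and side of the threshold, 20 lost and 14 gained a call, and 22 changed sign; of 481 values of other named genes, 12 lost a call. The cause was not tested except where fewer genes or samples entered. The sign changes were of values that had not passed the test. Lamb2 in endothelial cells 1 against 2 (-0.04) was 0.00 with DESeq2, 0.02 with no filter, 0.01 with sums of 10 or more cells, 0.49 with thinned cells, 0.06 in 1 fit over all populations, 0.00 without barcodes of both marker sets, 0.05 on library totals, and -0.17 to 0.11 with a library left out. Lamc1 in tendon fibroblasts 1 to 3 against endothelial cells 1 was 0.27 with thinned cells. Lama2 in nerve cells against tendon fibroblasts was -0.09 with DESeq2, -0.30 with thinned cells and -0.57 to 0.46 with a library left out. In pericytes against tendon fibroblasts, Lamb1 was -1.03 without barcodes of both marker sets and Hspg2 0.04 on library totals; with a library left out, Lama4 ran from -0.11 to 0.70, Lamb1 from -0.81 to 1.34 and Lamb2 from -0.18 to 0.40. In tendon fibroblasts 1 against bursal fibroblasts, leaving a library out gave -0.99 to 0.31 for Lamc1 and -0.01 to 0.59 for Hspg2.

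With thinned cells fewer genes passed the filter, members among them. In endothelial cells 1 against 2, 1 member was called of 3 tested (1055 genes tested in all). In pericytes against tendon fibroblasts it was 1 of 4 (963 genes), and in tendon fibroblasts 1 against 2 it was 3 of 5 (2063 genes). Nid2 in nerve cells against tendon fibroblasts (1.21, adjusted p = 0.108) and Lamc1 in pericytes against tendon fibroblasts (0.63) lost their calls. The fit over all populations called 5 of 9 members in nerve cells against tendon fibroblasts, with 10284 genes tested. It called 5 of 9 in tendon fibroblasts 1 against bursal fibroblasts, with 9964 genes tested. No filter also called 5 of 9 in the latter, with 13676 genes tested. All genes called in a setting are given below only where their count moved by over 1.5 times. DESeq2 lost Lamb1 in pericytes against endothelial cells 1 (-1.62, adjusted p = 0.0578), Nid2 in endothelial cells 1 against 2, Nid1 in tendon fibroblasts against endothelial cells 1 (0.62) and Lamc1 in tendon fibroblasts 1 against 2 (-1.51, 0.0567). With no replicate block, 4, 4, 7, 3, 3, 5 and 3 members were called in the 7 comparisons, in the order of the report, against 5, 4, 7, 3, 3, 5 and 3 with it; Lamb1 in pericytes against endothelial cells 1 was the member lost, and Itga6 and Sdc1 in tendon fibroblasts 1 against 2 were the other named genes lost. The settings on library totals and without barcodes of both marker sets were chosen after seeing the data.

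With thinned cells the alpha shares were 38.8% Lama4 and 60.4% Lama5 in endothelial cells 1, and 62.1% Lama2 and 33.2% Lama4 in tendon fibroblasts 1 to 3. In tendon fibroblasts 2 they were 57.9% Lama2, 37.8% Lama4 and 4.29% Lama5. Libraries under 20 alpha UMIs after thinning were left out, so the set of libraries can differ from that of the main shares. Before thinning, Lama2 in tendon fibroblasts 1 to 3 was at 61.7%, 51.2%, 45.5% and 48.6% in libraries 1 to 4, on 528, 43, 165 and 35 alpha UMIs. With equal cells per population, bursal fibroblasts held 13.6% of the 9 genes' UMIs. Without thinning, the mean share of cells with a UMI over genes and populations was 41.1% in place of 24.2%.

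Counts of all genes called moved by over 1.5 times as follows. Pericytes against endothelial cells 1 went from 1877 to 2918 with no filter and 499 with thinned cells. Endothelial cells 1 against 2 went from 933 to 579 with DESeq2, 283 with thinned cells, 535 in the fit over all populations, 616 without library 1 and 484 without library 2. Thinning gave 780 in place of 2866 in tendon fibroblasts against endothelial cells 1, and 459 in place of 1800 in pericytes against tendon fibroblasts. Nerve cells against tendon fibroblasts went from 1400 to 2486 with no filter, 2288 with sums of 10 or more cells, 2876 in the fit over all populations, 838 without library 1, 913 without library 2 and 2288 without library 4. Tendon fibroblasts 1 against 2 went from 572 to 1073 with no filter, 336 with thinned cells and 362 without library 1. Tendon fibroblasts 1 against bursal fibroblasts went from 777 to 493 with DESeq2, 1216 with no filter and 380 without library 1. Sums of 10 or more cells in both comparisons of tendon fibroblasts 1, and thinned cells in the one with bursal fibroblasts, gave no fit.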
